A study of Mus musculus with 4 samples.

Results

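Semaphorins, plexins, neuropilins, Eph receptors and ephrins were followed through the cell classes of the aged mouse hypothalamus as a set of 48 genes. The set holds every gene symbol that starts with Sema, Plxn, Epha, Ephb, Efna or Efnb, together with Nrp1 and Nrp2, if it had at least 10 unique molecular identifiers (UMIs, each standing for 1 captured RNA molecule) summed over the 2 control-labelled matrices. Of 32285 genes in the matrices, 56 symbols fitted these names and 48 reached the limit. The 8 that did not, with 0 to 9 UMIs each, were Efna1, Efna4, Epha1, Epha2, Ephb4, Plxna4os1, Sema3b and Sema3g. Among the 48, UMI sums ran between 20 for Ephb3 and 9472 for Epha6.

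The study profiled single nuclei isolated from frozen hypothalami of old mice, at about 18 months of age. Its transplanted group had received hypothalamic neural stem cells derived from human brain organoids, and its other group was labelled control; 2 samples carry each label. Strain, sex and what the control animals were given are not stated in the labels, and titles that join 2 codes do not say whether animals were pooled. Only mouse genes are present in the matrices, so transplanted human cells were not measured here. The transplanted-labelled and control-labelled deposits hold the same nuclei: 3997 barcodes were shared by the 4020 nuclei of the first transplanted-labelled matrix and the 4008 of the first control-labelled one, and 2144 by the 2151 and 2150 nuclei of the second pair. Summed over the 48 genes, the first pair held 37878 UMIs under the transplanted label and 37853 under the control label, and the second pair held 21793 and 21978. No comparison of transplantation with control was therefore made. The control-labelled matrices served as 2 libraries, called A and B. Since both labels hold the same nuclei, whether these came from control or transplanted animals is not known. Every p-value below rests only on how far differences between groups varied between these 2 libraries, after their overall difference was taken out. That spread may be technical.

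Library A held 8779880 UMIs in 4008 nuclei and library B held 4924563 in 2150. Nuclei were clustered without the 48 genes, so that their levels had no part in defining the clusters, and clusters were named from marker genes. Oligodendrocytes made up 374 and 285 nuclei in libraries A and B, oligodendrocyte precursors 134 and 72, astrocytes 307 and 200, tanycytes 104 and 42, microglia 64 and 60, and neurons 2973 and 1429. Own markers stood at least 4-fold above the other nuclei for 16 of 16 in oligodendrocytes, 12 of 13 in precursors, 15 of 15 in astrocytes, 14 of 15 in microglia and 8 of 15 in tanycytes. The tanycyte cluster also carried 5 of 10 ependymal markers at that level, and microglia carried 4 of 5 erythroid markers, with a summed level of 135 and 4003 CPM (the UMIs of a gene scaled to the total UMIs of its class and library) in A and B. Microglia also held summed markers of endothelial cells at 473 and 749 CPM (35.9 and 35.6 CPM in neurons), of pericytes or smooth muscle at 405 and 1006 CPM (32.8 and 39.3 CPM) and of leptomeningeal fibroblasts at 203 and 1170.3 CPM (5.54 and 6.24 CPM). Summed neuronal markers reached 3.06% to 6.67% of their level in neurons in astrocytes, microglia, precursors and oligodendrocytes, and 13.4% and 8.49% in tanycytes. The part of these other markers in the results was not tested. A cluster of 66 nuclei with markers of several classes was left unnamed. Neuron cluster 3 was left out of comparisons with glia, because its first leading genes held the ependymal marker Hydin and no neuronal one. It still had 9 of 12 neuronal markers more than 2-fold above the glial clusters.

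Semaphorins are secreted or membrane-bound guidance cues that are read by plexins. Secreted class 3 semaphorins mostly need a neuropilin as the binding partner beside an A-type plexin, while Sema3e binds Plxnd1 directly. Eph receptors are receptor tyrosine kinases that bind ephrins on a touching cell; A-type ephrins are held by a lipid anchor, B-type ephrins span the membrane, and both sides of the contact can signal. In the hypothalamus, class 3 semaphorins are known for guiding the axons of gonadotropin-releasing hormone neurons and for the wiring of melanocortin circuits. In the mature brain, Eph receptors and ephrins sit at synapses and at contacts with astrocytes.

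The regions just before the start sites of 6 members are shown because each was higher in a glial class than in neurons below. They are Plxnb3 and Ephb1 in oligodendrocytes, Sema3d, Sema3e and Sema5b in their precursors, and Efna5 in tanycytes. Plxnb3 and Sema3e were higher in both oligodendrocytes and precursors. Neuron clusters 10 and 20 also had much Ephb1, at 408 and 731 CPM and at 448 and 675 CPM in A and B. Each region is the 250 bases before the RefSeq start in build GRCm38.p6, printed 5′ to 3′ along the gene. The windows are chrX:73756853-73757102 (plus strand) for Plxnb3, chr9:102354694-102354943 (minus strand) for Ephb1, chr5:12382916-12383165 (plus strand) for Sema3d, chr5:14025026-14025275 (plus strand) for Sema3e, chr16:35541112-35541361 (plus strand) for Sema5b and chr17:62881318-62881567 (minus strand) for Efna5. Capitals mark matches on either strand to 4 letter strings. The core bound by SOX factors was searched as ACAAAG. The E-box, bound by basic helix-loop-helix factors, was searched as CAGCTG. The GC box was searched as GGGCGG. The fourth string, the TATA box, was searched as TATAAA.
Plxnb3: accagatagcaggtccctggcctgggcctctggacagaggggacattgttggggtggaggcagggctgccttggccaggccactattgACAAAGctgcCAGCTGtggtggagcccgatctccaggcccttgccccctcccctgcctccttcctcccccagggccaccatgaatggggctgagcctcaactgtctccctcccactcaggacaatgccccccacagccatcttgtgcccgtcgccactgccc
Ephb1: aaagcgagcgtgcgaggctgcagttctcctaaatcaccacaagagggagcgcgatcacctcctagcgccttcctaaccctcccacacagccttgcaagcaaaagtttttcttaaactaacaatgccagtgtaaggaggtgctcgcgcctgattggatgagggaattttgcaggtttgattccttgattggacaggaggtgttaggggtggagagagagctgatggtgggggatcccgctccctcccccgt
Sema3d: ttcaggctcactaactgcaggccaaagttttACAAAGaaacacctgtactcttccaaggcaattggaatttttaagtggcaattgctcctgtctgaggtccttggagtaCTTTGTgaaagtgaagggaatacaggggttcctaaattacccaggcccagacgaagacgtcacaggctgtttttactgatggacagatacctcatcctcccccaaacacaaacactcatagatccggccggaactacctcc
Sema3e: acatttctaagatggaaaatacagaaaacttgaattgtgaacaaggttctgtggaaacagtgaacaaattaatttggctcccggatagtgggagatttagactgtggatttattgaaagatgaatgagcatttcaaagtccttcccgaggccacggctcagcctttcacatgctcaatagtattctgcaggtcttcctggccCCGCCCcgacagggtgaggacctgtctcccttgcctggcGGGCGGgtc
Sema5b: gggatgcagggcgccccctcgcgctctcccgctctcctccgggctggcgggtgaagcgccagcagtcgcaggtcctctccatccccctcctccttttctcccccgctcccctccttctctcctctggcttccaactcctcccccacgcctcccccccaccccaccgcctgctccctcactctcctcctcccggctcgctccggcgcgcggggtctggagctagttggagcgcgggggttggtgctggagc
Efna5: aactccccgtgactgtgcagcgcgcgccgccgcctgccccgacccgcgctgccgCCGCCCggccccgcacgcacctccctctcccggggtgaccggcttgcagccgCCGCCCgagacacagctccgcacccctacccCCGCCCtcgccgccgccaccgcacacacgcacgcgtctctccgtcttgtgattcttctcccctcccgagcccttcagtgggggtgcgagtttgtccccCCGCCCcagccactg

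The Plxnb3 window held 1 SOX core and 1 E-box, the Sema3d window 2 SOX cores, the Sema3e window 2 GC boxes and the Efna5 window 4 GC boxes, while the windows of Ephb1 and Sema5b held none of the 4 strings. Over all 32851 RefSeq windows of the same length, 16.5% held the SOX core, 32.7% the GC box, 13% the E-box and 12.4% the TATA box. Of the 48 members, 41 were found in the RefSeq table by symbol, with 54 windows between them. The GC box was present in 40 of these windows, the SOX core in 6, the E-box in 8 and the TATA box in 1. The median GC content was 64.4% in the members' windows and 52.4% in all windows. A string match describes the letters only.

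EphA receptors, the kinases that read A-type ephrins, were mostly lower in glia than in neurons. Of 7 EphA members, 5 were lower in oligodendrocytes than in neurons, 5 in precursors, 6 in astrocytes, 5 in tanycytes and 5 in microglia, where 18%, 9.92%, 16.3%, 10.8% and 12.6% of all genes were lower. None was higher in any of these (edgeR quasi-likelihood test on summed counts of each class and library, Benjamini-Hochberg adjusted over 17301 genes, threshold 0.05). Epha6 was called lower in all 5 glial classes. Epha10 and the plexin Plxna4 were also called in all 5, but without TMM scaling both calls in microglia were lost, and there Plxna4 averaged no lower than in neurons.

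**Figure D1:**
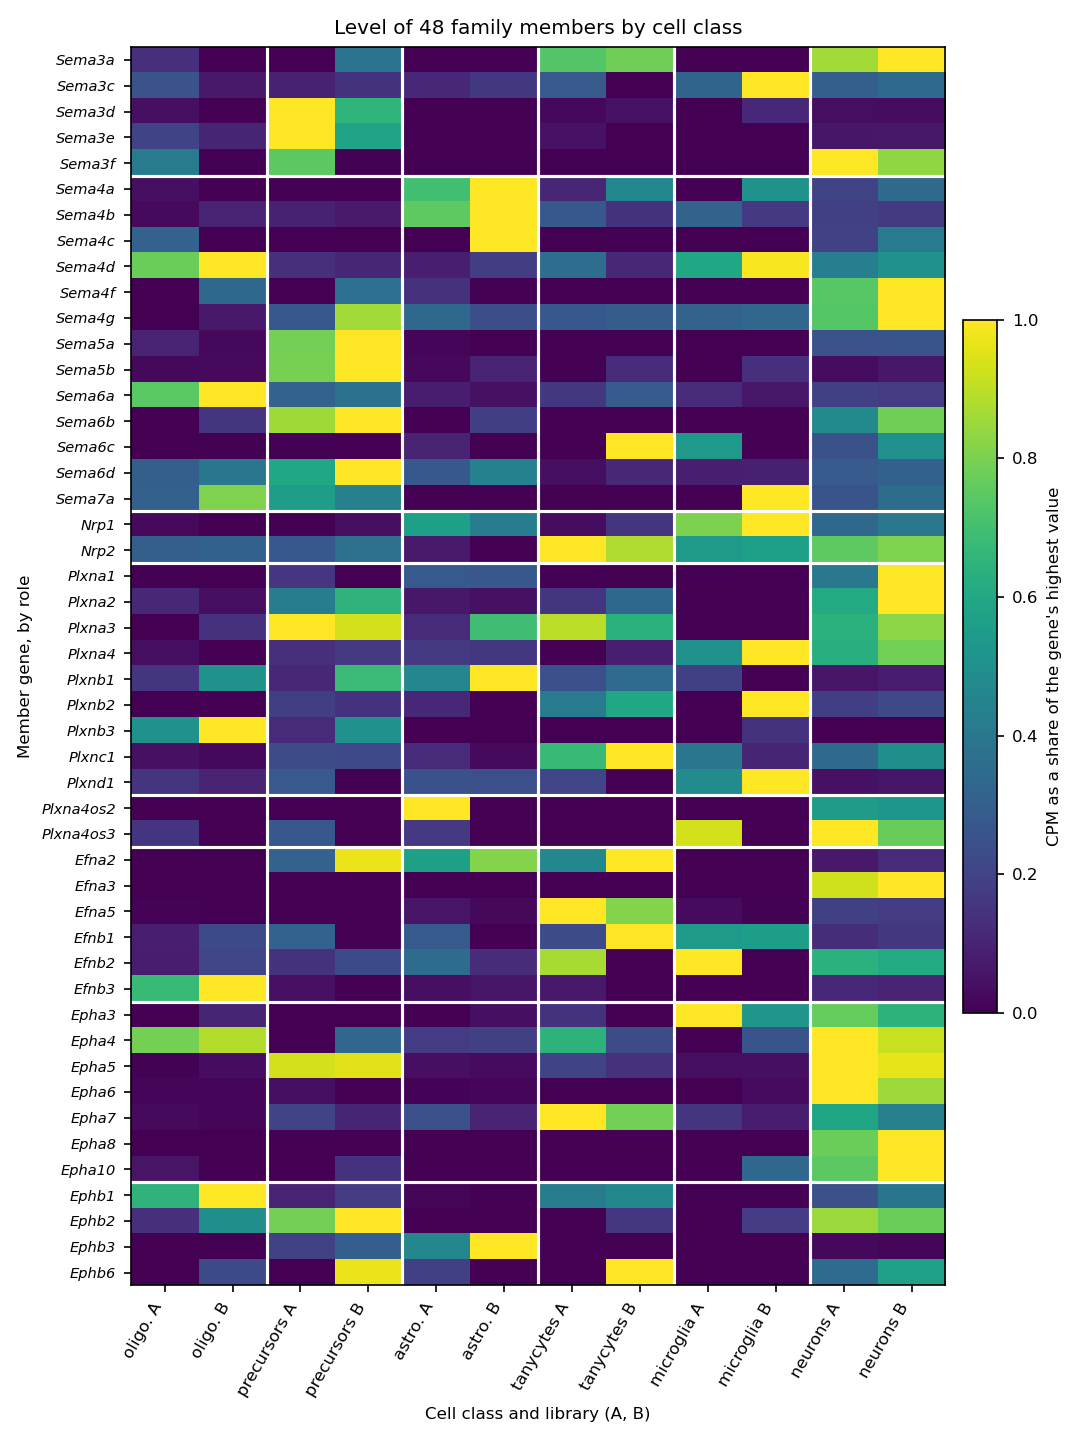
Levels of the 48 members in the 5 glial classes and in neurons, with libraries A and B in separate columns. Colour gives CPM as a share of the gene's highest value, so it does not compare levels between genes. Epha6 is highest in neurons, Plxnb3 and Efnb3 in oligodendrocytes, Sema3d in their precursors and Efna5 in tanycytes.

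Oligodendrocyte precursors, the dividing cells that give rise to oligodendrocytes, carried a group of semaphorins. Against neurons, 7 of 48 members were higher and 14 lower, where 5.01% and 9.92% of all genes were. Sema3d, a secreted semaphorin, had 419 and 275 CPM in precursors of libraries A and B, against 15.7 and 14.0 CPM in neurons (log2 difference 4.26 ± 0.30 SE, adjusted p = 6.8e-44). Sema3e, which acts through Plxnd1, had 406 and 234 CPM in precursors and 24.1 and 25.5 CPM in neurons (3.44 ± 0.28, adjusted p = 1.3e-32). Both were far higher in precursors in each library.

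Sema5b, a membrane semaphorin, had 138 and 173 CPM in precursors, against 5.83 and 10.9 CPM in neurons (3.96 ± 0.44, adjusted p = 2.9e-17). Its relative Sema5a, a ligand of Plxnb3, had 354 and 448 CPM in precursors, against 115 and 117 CPM in neurons (1.46 ± 0.21, adjusted p = 2.6e-10). Sema6d, Plxnb1 and Plxnb3 were the other members that were higher. Of the members that were lower, the GPI-anchored ephrin Efna5 had no UMI in precursors of either library, against 724 and 661 CPM in neurons, at least 58.6-fold lower against a floor of 3 counts over both libraries, as used for every such bound (adjusted p = 5.1e-52). Epha3 had none in precursors either and was at least 8.14-fold lower (adjusted p = 5.2e-10). Epha6 had 32.7 and 0 CPM in precursors, against 849 and 726 CPM in neurons (−5.62 ± 0.36, adjusted p = 5.5e-52), and Plxna4 65.5 and 81.5 CPM against 308 and 387 CPM (−2.54 ± 0.30, adjusted p = 2.2e-15). Epha5, with 550 and 560 CPM in precursors against 587 and 565 CPM in neurons, did not pass the test (−0.36 ± 0.17, adjusted p = 0.17).

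Mature oligodendrocytes, the myelin-forming cells, carried a set that overlapped with that of their precursors in Plxnb1, Plxnb3 and Sema3e. Against neurons, 7 members were higher and 25 lower, where 10.1% and 18% of all genes were. Plxnb3, a plexin that binds Sema5a, had 82.3 and 160.5 CPM in oligodendrocytes (57 UMIs), against 0 and 0.26 CPM in neurons (1 UMI), a ratio with a counting interval of 214 to 49913 (95%, counting error only; adjusted p = 2.4e-39). Efnb3, a membrane-spanning ephrin, had 197 and 293 CPM in oligodendrocytes and 32.5 and 29.6 CPM in neurons (2.83 ± 0.24, adjusted p = 2.6e-31). The receptor Ephb1 had 408 and 628 CPM in oligodendrocytes, against 157 and 244 CPM in neurons (1.27 ± 0.15, adjusted p = 2.3e-15).

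Sema6a, a transmembrane semaphorin, had 544 and 732 CPM in oligodendrocytes and 138 and 130 CPM in neurons (2.13 ± 0.15, adjusted p = 1.1e-43). Sema4d, known for its place on oligodendrocytes and for signalling to Plxnb1, had 147 and 189 CPM against 80.6 and 96.7 CPM (0.81 ± 0.23, adjusted p = 0.0019). Plxnb1 itself, with 17.9 and 61.4 CPM against 7.29 and 9.36 CPM, and Sema3e were also higher. Among the 25 lower members, Epha6 had 10.7 and 14.2 CPM in oligodendrocytes, against 849 and 726 CPM in neurons (−6.11 ± 0.32, adjusted p = 4.1e-79), and Epha5 3.58 and 18.9 CPM against 587 and 565 CPM (−5.90 ± 0.35, adjusted p = 3.2e-63). Efna5 had 42.9 and 14.2 CPM in oligodendrocytes (−4.63 ± 0.28, adjusted p = 3.2e-61) and Plxna4 17.9 and 0 CPM (−5.15 ± 0.37, adjusted p = 9.9e-42).

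Set directly against their precursors, oligodendrocytes had 6 members higher and 13 lower, where 5.82% and 6.56% of all genes were. Ephb1 had 408 and 628 CPM in oligodendrocytes, against 58.9 and 112 CPM in precursors (2.83 ± 0.31, adjusted p = 1.6e-18). Sema4d had 147 and 189 CPM against 26.2 and 20.4 CPM (2.97 ± 0.52, adjusted p = 2.1e-07), and Sema6a 544 and 732 CPM against 229 and 275 CPM (1.54 ± 0.23, adjusted p = 3.7e-10). Efnb3 was close to absent from precursors, with 2 UMIs there and 117 in oligodendrocytes (a ratio with a counting interval of 8.09 to 249.6, adjusted p = 1.2e-14).

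In the other direction, several semaphorins of the precursors were close to 0 in oligodendrocytes. Sema3d had 17.9 and 0 CPM in oligodendrocytes, against 419 and 275 CPM in precursors (−4.92 ± 0.50, adjusted p = 1.2e-20), and Sema5a 42.9 and 9.44 CPM against 354 and 448 CPM (−3.58 ± 0.37, adjusted p = 2.7e-20). Epha5 fell to 3.58 and 18.9 CPM in oligodendrocytes, against 550 and 560 CPM in precursors (−5.54 ± 0.43, adjusted p = 5.4e-36). Sema5b, with 2 UMIs in oligodendrocytes and 38 in precursors, was lower by a ratio with a counting interval of 9.61 to 318 (adjusted p = 5e-09). Plxnb3 did not pass the test between these classes (adjusted p = 0.061).

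**Figure D2:**
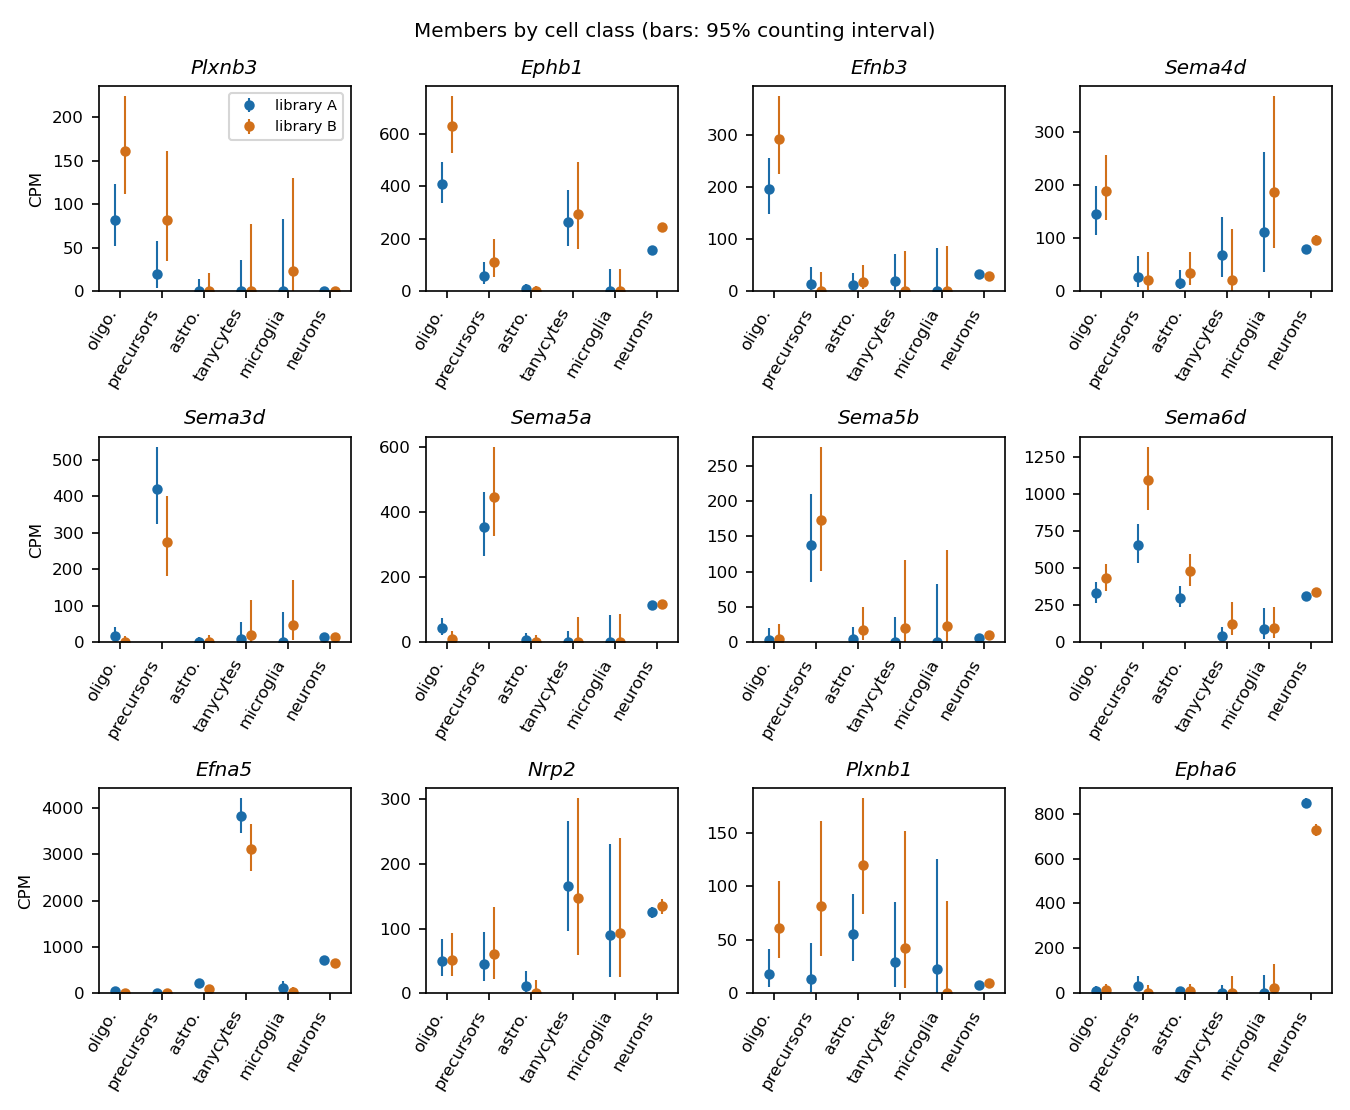
Levels of 12 members in each cell class, in CPM, with 1 point per library and 95% counting intervals. Sema3d, Sema5a and Sema5b are highest in oligodendrocyte precursors, Plxnb3, Ephb1 and Efnb3 in oligodendrocytes, and Efna5 in tanycytes.

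Astrocytes had 4 members higher and 23 lower than neurons, where 9.97% and 16.3% of all genes were. Plxnb1, the receptor of Sema4d, had 55.5 and 119.5 CPM in astrocytes, against 7.29 and 9.36 CPM in neurons (3.07 ± 0.43, adjusted p = 1.4e-11). The membrane semaphorin Sema4b had 107 and 142 CPM against 26.8 and 24.4 CPM (2.02 ± 0.31, adjusted p = 1.5e-09), and Sema4a 63.4 and 91.0 CPM against 18.5 and 31.5 CPM (1.43 ± 0.37, adjusted p = 0.00076). Ephb3 was also higher, on 10 UMIs in astrocytes and 7 in neurons (adjusted p = 0.00026).

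Ephb1 and Ephb2, receptors of B-type ephrins, were nearly absent from astrocytes: Ephb2 had no UMI there and was at least 15.6-fold lower than in neurons (adjusted p = 2.3e-17), and Ephb1 had 2 UMIs (adjusted p = 7.3e-26). Epha6 had 7.92 and 11.4 CPM in astrocytes, against 849 and 726 CPM in neurons (−6.61 ± 0.35, adjusted p = 5.2e-78), Epha5 23.8 and 17.1 CPM against 587 and 565 CPM (−4.99 ± 0.31, adjusted p = 4.4e-56) and Efna5 214 and 85.3 CPM against 724 and 661 CPM (−2.37 ± 0.20, adjusted p = 3e-31). Of the neuropilins, Nrp2 was lower, with 11.9 and 0 CPM in astrocytes, while Nrp1, with 158 and 119 CPM in astrocytes against 95.3 and 111 CPM in neurons, was not called.

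Tanycytes, the cells that line the floor of the third ventricle, were set apart by Efna5. It had 3823 and 3120 CPM in tanycytes, against 724 and 661 CPM in neurons (1.70 ± 0.14, adjusted p = 7e-33), and was the only member higher, with 15 lower, where 4.9% and 10.8% of all genes were. DESeq2 called 1 higher and 6 lower, as did the test without library A for the tanycytes, and without TMM 2 were higher and 10 lower. The next member by p in that direction, Plxnb1, did not pass (29.3 and 41.9 CPM against 7.29 and 9.36 CPM, adjusted p = 0.34). Epha6 had no UMI in tanycytes and was at least 40.2-fold lower than in neurons (adjusted p = 1.1e-46). Epha5 had 117 and 83.8 CPM against 587 and 565 CPM (−3.05 ± 0.31, adjusted p = 1.9e-21), and Sema6d 39.1 and 126 CPM against 312 and 340 CPM (−2.85 ± 0.38, adjusted p = 2e-12). Plxna4 had 2 UMIs (adjusted p = 1.9e-20). The log2 differences carry TMM scaling and the CPM do not, and without TMM the median of all genes moved by 0.61 in tanycytes.

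Between the 2 classes of ventricular and parenchymal glia, tanycytes had 5 members higher and 4 lower than astrocytes, where 2.32% and 3.89% of all genes were, 6.21% in all. Efna5 had 3823 and 3120 CPM in tanycytes, against 214 and 85.3 CPM in astrocytes (4.07 ± 0.20, adjusted p = 7.1e-85). Epha7, a receptor of A-type ephrins, had 293 and 230 CPM against 71.3 and 28.4 CPM (1.92 ± 0.41, adjusted p = 0.00011), and the plexin Plxnc1, which binds Sema7a, 156 and 230 CPM against 27.7 and 5.69 CPM (2.90 ± 0.58, adjusted p = 2e-05). A ligand and a receptor that can bind it were both higher in tanycytes than in astrocytes.

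Ephb1 had 41 UMIs in tanycytes and 2 in astrocytes (a ratio with a counting interval of 15.2 to 499, adjusted p = 9.2e-14), and Nrp2 had 24 and 3 (6.93 to 118, adjusted p = 7.8e-07). The neuropilins went opposite ways, since Nrp1 had 3 UMIs in tanycytes and 61 in astrocytes (adjusted p = 6.9e-05). Sema6d had 39.1 and 126 CPM in tanycytes, against 301 and 478 CPM in astrocytes (−2.85 ± 0.41, adjusted p = 4.2e-10). Sema4b and Plxna4 were the other members that were lower. Ependymal markers, which moved with the tanycyte cluster, summed to 792 and 503 CPM in them; their part in these differences was not tested.

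Microglia had 18 members lower than neurons and none higher, where 12.6% and 5.37% of all genes were. None was higher at an unadjusted p under 0.05 by edgeR, and DESeq2 called 2, Plxnd1 with 3 UMIs and Plxnb3 with 1. Without TMM, 1 member was higher and 10 were lower, and leaving out either library for the microglia left 11 lower. Epha6 had 1 UMI in microglia, Epha5 had 2, and Ephb1 had none and was at least 5.46-fold lower than in neurons (adjusted p = 6e-11). Efna5 had 113 and 23.4 CPM in microglia, against 724 and 661 CPM in neurons (−4.26 ± 0.40, adjusted p = 4.8e-24). Nrp1 had 225 and 281 CPM in microglia, against 95.3 and 111 CPM in neurons, and did not pass the test (0.39 ± 0.37, adjusted p = 0.60). Its libraries did not overlap. The log2 difference carries TMM scaling and the CPM do not, and without TMM the median of all genes moved by 0.88 in microglia. The test of Nrp1 therefore does not show that its level was the same. Plxna4, with 248 and 491.5 CPM against 308 and 387 CPM, was called lower (−0.82 ± 0.28, adjusted p = 0.023), but its libraries overlapped and without TMM scaling the difference was 0.10. Its antisense transcripts Plxna4os2 and Plxna4os3 overlap Plxna4, and the sources used here do not state whether counting used strand, so that their reads cannot be told apart.

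The median log2 difference of the members was −2.65 in oligodendrocytes, −1.48 in precursors, −2.20 in astrocytes, −1.52 in tanycytes and −2.89 in microglia against neurons, beside −0.58, −0.70, −0.50, −0.82 and −1.58 over all genes. These fitted values depend on the prior count where a class had no UMI. With such genes at the bound that 3 counts give, the members' medians were −1.41, −0.40, −1.51, −0.12 and 0, and those of all genes were 0 throughout.

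Other ligands and receptors of these pathways had the following levels. Sema3a, which repels axons through Nrp1, had no UMI in astrocytes or microglia, against 23.0 and 26.8 CPM in neurons. Sema3c had 21.1 and 23.9 CPM in neurons. Plxnd1, the receptor of Sema3e, had 13.1 and 0 CPM in precursors, the class highest in Sema3e, against 2.19 and 2.60 CPM in neurons. Efnb2, a B-type ephrin, had 28.7 and 27.6 CPM in neurons. Plxna1 and Plxna2, partners of the neuropilins, had no UMI in microglia. In neurons, Plxna1 had 16.8 and 41.9 CPM and Plxna2 had 76.4 and 125 CPM. Over both libraries, 3 counts were 34.4 CPM in microglia, above the neuron levels of Sema3a and between those of Plxna1. The lack of UMIs of Sema3a and Plxna1 in microglia therefore does not show that they were absent there. Epha4, which binds ephrins of both types, had 71.6 and 80.2 CPM in oligodendrocytes and 90.7 and 83.2 CPM in neurons.

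Among neurons, 27 of 48 members varied over 17 clusters (edgeR F test over clusters with the library as a term, adjusted over all genes), where 15.1% of all genes did. All 7 EphA receptors, all 5 class 3 semaphorins and both neuropilins varied, as did 5 of 9 plexins, 3 of 6 ephrins, 4 of 13 membrane semaphorins and 1 of 4 EphB receptors. The 12 smallest p belonged to Epha7, Epha5, Sema6d, Nrp1, Epha6, Ephb1, Epha3, Nrp2, Efna5, Sema5a, Sema3e and Sema6a. Epha7 spanned 593 CPM in its highest cluster and 36.8 CPM in its lowest (adjusted p = 1.5e-133). Set against the other neurons, single clusters gave 44 higher and 77 lower calls out of 816 pairs of member and cluster, where 1.07% and 1.86% of all pairs were called, 2.94% in all. Of the 121 calls, 119 had the same direction in both libraries. The calls were made on these same 2 libraries, so this is not separate support for them.

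**Figure D3:**
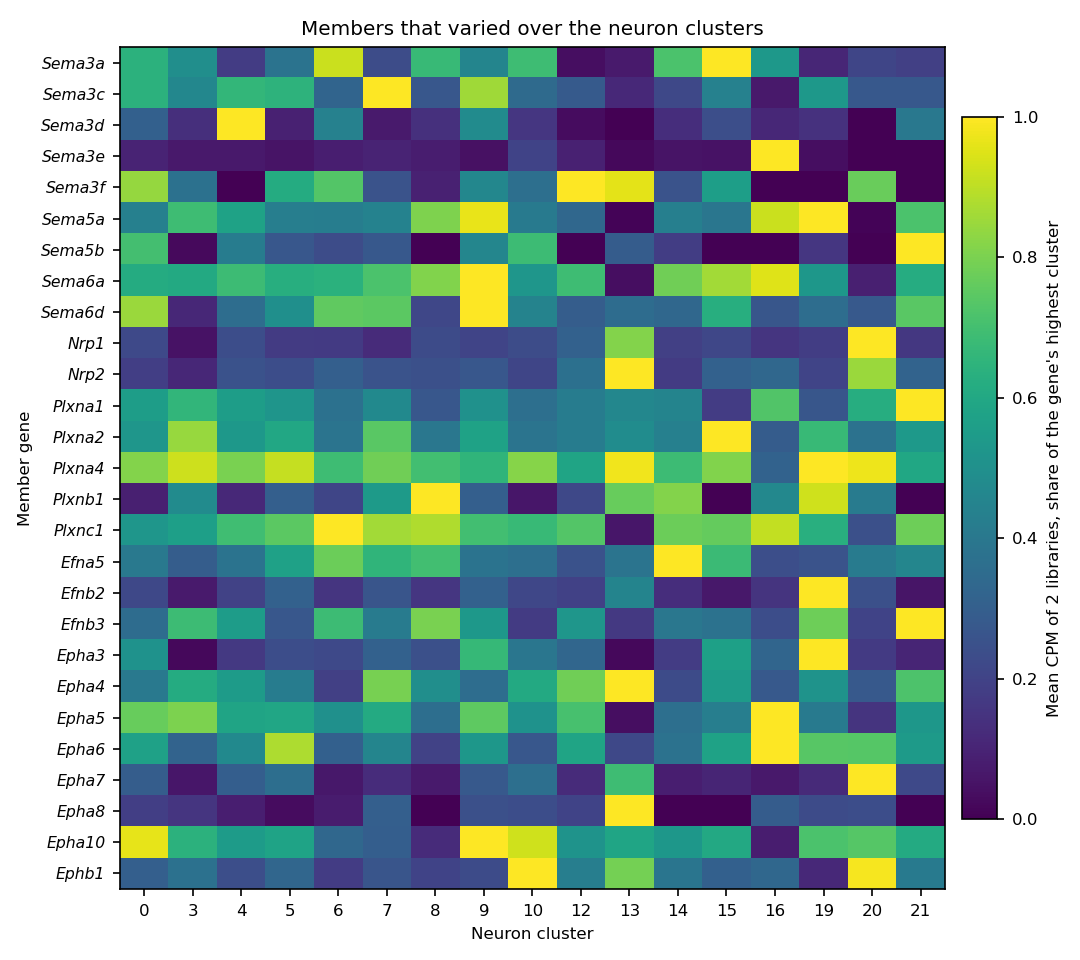
Levels of the 27 members that varied over neuron clusters, in the 17 clusters tested. Colour gives CPM averaged over libraries A and B, as a share of the gene's highest cluster. Clusters 13 and 20 are high in Nrp1, Nrp2, Epha7 and Ephb1 and low in Epha5 and Sema5a.

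Clusters 13 and 20, both led by Myo5b, shared a profile. In cluster 13, Nrp2 had 467 and 448 CPM, against 104 and 116 CPM in the other neurons (2.09 ± 0.15, adjusted p = 4e-40), and Nrp1 had 271 and 416 CPM against 78.1 and 94.1 CPM (1.96 ± 0.17, adjusted p = 2.8e-27). Epha5 had 25.3 and 45.5 CPM in cluster 13, against 637 and 601 CPM in the other neurons (−4.24 ± 0.25, adjusted p = 1.1e-61), and Sema5a had 1 UMI. These 9 higher and 9 lower calls were the most of any cluster, where 459 and 882 of 17274 genes were called. The 1341 calls over all genes in cluster 13 were also the most of any cluster.

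In cluster 20, Epha7 had 595 and 591 CPM, against 145 and 111 CPM in the other neurons (2.16 ± 0.17, adjusted p = 5.5e-33), and Nrp1 had 375 and 470 CPM against 75.5 and 98.6 CPM (2.28 ± 0.19, adjusted p = 1.2e-30). Epha5 had 208 and 96.5 CPM in cluster 20, against 628 and 590 CPM (−1.83 ± 0.22, adjusted p = 7.1e-15). Epha6 divided the pair: it had 351 and 318 CPM in cluster 13, against 827 and 724 CPM in the other neurons, but 1211 and 1061 CPM in cluster 20, against 797 and 701 CPM. Both clusters were rich in glutamatergic nuclei (55.1% and 52.1%) and poor in GABAergic ones (1.69% and 1.65%).

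Cluster 16 had 3 members higher and 6 lower, cluster 19 had 2 and 4, and cluster 4 had 1 and 3. Of all 17274 genes, 286 were higher and 601 lower in cluster 16, 96 and 206 in cluster 19, and 106 and 174 in cluster 4. In cluster 16, led by Vipr2 and Prok2, Sema3e had 311 and 191 CPM, against 17.4 and 19.3 CPM in the other neurons (3.65 ± 0.28, adjusted p = 3e-35), while Plxna4 had 79.4 and 207 CPM against 314 and 402 CPM. In cluster 19, led by Sst, Efnb2 had 139 and 93.8 CPM, against 22.7 and 24.9 CPM (2.33 on the log2 scale, adjusted p = 4e-10), and Epha3 had 246 and 235 CPM against 86.5 and 79.2 CPM. In cluster 4, led by Meis2, Sema3d had 52.6 and 58.3 CPM, against 12.6 and 10.1 CPM (2.20 ± 0.31, adjusted p = 1e-09). Sema3e, Efnb2, Epha3 and Sema3d were higher in these clusters in both libraries, the same ones that the tests used.

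Cluster 9, led by Pmch, the melanin-concentrating hormone gene, had Sema6d at 527 and 511 CPM, against 261 and 309.5 CPM in the other neurons (0.89 on the log2 scale, adjusted p = 7.2e-12), and Sema5a at 220 and 220 CPM against 112 and 113 CPM. In cluster 14, led by Rxfp1, Esr1 and Pgr, Efna5 had 1418 and 1403 CPM, against 669 and 597 CPM (1.04 on the log2 scale, adjusted p = 9.8e-10). In cluster 10, Ephb1 had 408 and 731 CPM, against 148 and 227 CPM (1.44 on the log2 scale, adjusted p = 7.7e-22). Cluster 7, led by Hcrt, the orexin gene, and Gal, had no member higher and 4 lower, where 97 and 229 of 17274 genes were. There 4 members were higher at an unadjusted p under 0.05, and DESeq2 called none higher.

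Cluster 3, which was kept in these tests, had Sema6d at 33.4 and 80.8 CPM, against 312 and 340 CPM in the other neurons (−2.77 ± 0.18, adjusted p = 4.7e-48), and Epha3 at 11.1 and 0 CPM against 103 and 87.3 CPM. In cluster 6, led by Trh and Cartpt, Efna5 had 1029 and 1157 CPM and Epha7 30.5 and 46.7 CPM. Cluster 0, led by Ebf2, had Sema6d at 383 and 500.3 CPM, against 258 and 263 CPM (0.77 on the log2 scale, adjusted p = 2.4e-23). In cluster 5, Epha6 had 1709.7 and 994 CPM, against 758 and 678 CPM (0.80 on the log2 scale, adjusted p = 5.8e-08). Cluster 8 was low in Epha6, with 324 and 286 CPM (−1.59 on the log2 scale, adjusted p = 1.9e-19).

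**Figure D4:**
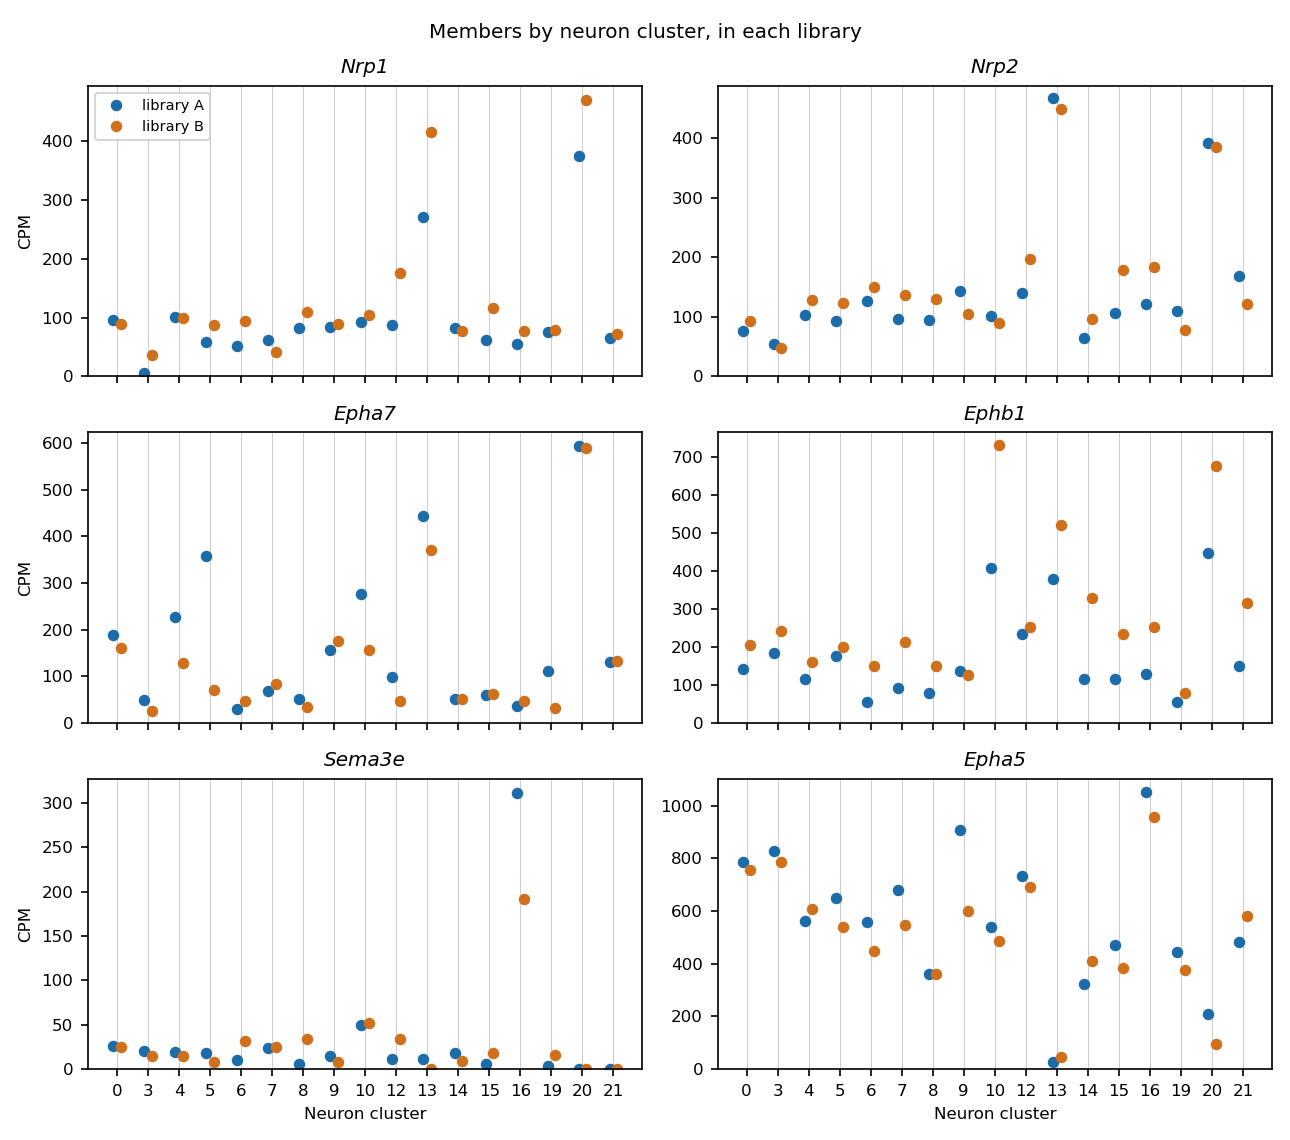
Levels of Nrp1, Nrp2, Epha7, Ephb1, Sema3e and Epha5 in each neuron cluster, in CPM, with 1 point per library. Sema3e is highest in cluster 16, at 311 and 191, and Epha5 is lowest in cluster 13, at 25.3 and 45.5.

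By transmitter type, the members that differed did so by 0.30 to 0.72 on the log2 scale. GABAergic nuclei (1087 and 561) had 3 of 47 tested members higher than glutamatergic nuclei (774 and 322) and 3 lower, where 1.64% and 2.68% of all genes were, 4.32% in all. Ephb1 had 111 and 195 CPM in GABAergic neurons, against 195 and 287 CPM in glutamatergic neurons (−0.72 ± 0.10, adjusted p = 2.4e-10). Epha7 had 143 and 96.9 CPM against 190 and 149 CPM (−0.52 ± 0.11, adjusted p = 9.5e-05), and Epha10 42.5 and 63.6 CPM against 64.8 and 80.2 CPM (−0.53 ± 0.15, adjusted p = 0.010). All 3 were lower in GABAergic neurons within each library, the same libraries that the test used. The values of the groups did not overlap, but only narrowly for Ephb1 (194.9 against 195.2 CPM) and Epha10 (63.6 against 64.8 CPM).

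Epha6 had 963 and 828 CPM in GABAergic neurons, against 729 and 565 CPM in glutamatergic neurons (0.44 ± 0.08, adjusted p = 1.2e-05). Sema6d had 325 and 386 CPM against 240 and 267 CPM (0.45 ± 0.09, adjusted p = 0.00012), and Efna5 746 and 720 CPM against 593 and 573 CPM (0.30 ± 0.08, adjusted p = 0.013). Without the library as a term none of the 6 was called, and DESeq2 called Ephb1 alone. Cluster 3, of whose nuclei 52.6% were glutamatergic and 5.42% GABAergic, was kept here; without it Sema6d and Efna5 were no longer called (0.20 and 0.20 on the log2 scale), and 2 members were higher and 6 lower. The median UMI count per nucleus was 2305 and 2676 in GABAergic nuclei and 2736 and 3072 in glutamatergic nuclei.

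**Figure D5:**
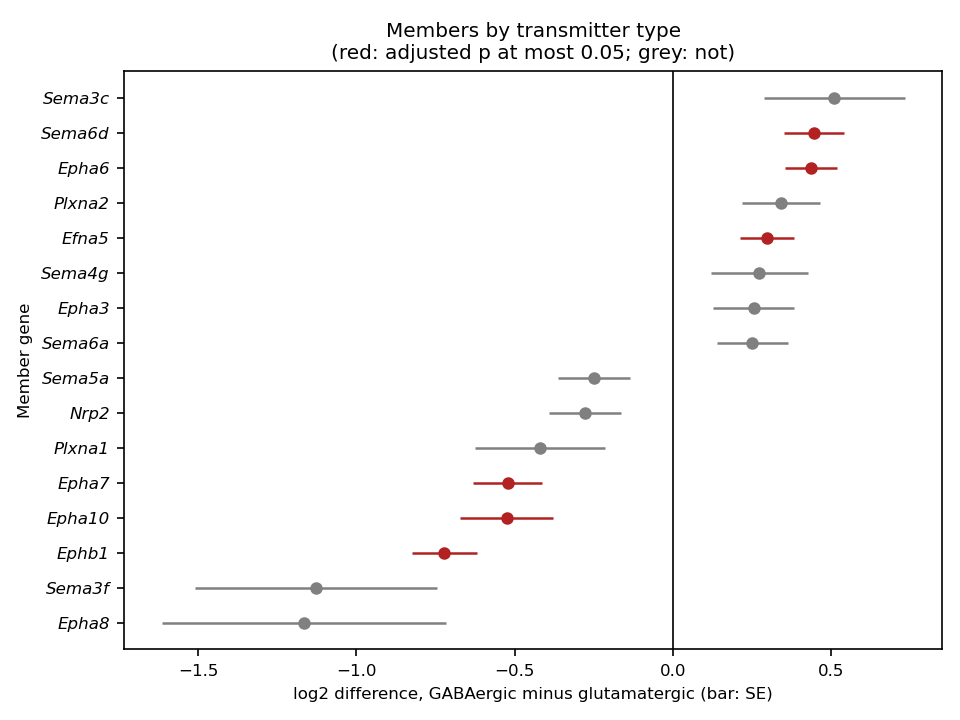
Log2 difference of GABAergic minus glutamatergic neurons for the 16 members with the smallest p, with standard errors. Epha6, Sema6d and Efna5 lie above 0 and Ephb1, Epha7 and Epha10 below it among those that passed the test.

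Genes that work with these families also differed between classes. For the lists that follow, the shares of all genes higher and lower than in neurons were 10.1% and 18% in oligodendrocytes, 5.01% and 9.92% in precursors, 9.97% and 16.3% in astrocytes, 4.9% and 10.8% in tanycytes and 5.37% and 12.6% in microglia. Of 29 semaphorin and plexin partners tested, 6 were higher and 8 lower in astrocytes than in neurons, among them Farp1, a plexin-linked exchange factor, with 994 and 1223 CPM in astrocytes against 199 and 207 CPM in neurons (2.22 on the log2 scale, adjusted p = 3.5e-56). In oligodendrocytes 3 were higher and 14 lower; Dpysl2, an effector of Sema3a signalling, had 1303 and 670 CPM against 593 and 311 CPM (1.02 on the log2 scale, adjusted p = 1.1e-12). In precursors 3 were higher and 8 lower, in tanycytes 2 and 10, and in microglia 1 and 13. The counts higher in oligodendrocytes, tanycytes and microglia were near the shares of all genes.

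Of 30 Eph and ephrin partners, 4 were higher and 12 lower in oligodendrocytes, 2 and 7 in precursors and 6 and 11 in astrocytes. In tanycytes 1 was higher and 10 lower, and in microglia 4 and 10. The 4 of 30 higher in oligodendrocytes, 2 of 30 in precursors and 1 of 30 in tanycytes were near the shares of all genes. Grip1, a scaffold that binds B-type ephrins and Eph receptors, had 7.16 and 4.72 CPM in oligodendrocytes, against 739 and 878 CPM in neurons (−7.10 on the log2 scale, adjusted p = 4.2e-83). Pdzrn3 had 968 and 1005 CPM in tanycytes, against 8.89 and 7.28 CPM in neurons (6.26 on the log2 scale, adjusted p = 9.3e-108).

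Netrins, Slits, their receptors and RGM genes, the other classical guidance families, were 7 higher and 14 lower of 28 tested in oligodendrocytes. In precursors 6 were higher and 8 lower, in astrocytes 5 and 13, in tanycytes 2 and 15 and in microglia 2 and 15. The 2 of 28 higher in tanycytes and in microglia were near the shares of all genes. Slit2, the secreted ligand of Robo receptors, had 4664 and 3748 CPM in tanycytes, against 418 and 357 CPM in neurons (2.81 on the log2 scale, adjusted p = 3.4e-90). Ntn1, the netrin that attracts axons through Dcc, had 157 and 397 CPM in precursors, against 5.10 and 9.88 CPM in neurons (4.83 on the log2 scale, adjusted p = 7.5e-36). Over neuron clusters, 20 of these 28 varied, 8 of the 29 semaphorin and plexin partners and 13 of the 30 Eph and ephrin partners, where 15.1% of all genes did; differences between the lists were not tested.

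Of the 48 members, 8 passed no test in any comparison: Efna2, Efna3, Efnb1, Ephb6, Plxna4os2, Plxnd1, Sema4c and Sema7a. They had 28 to 126 UMIs in all. Over both libraries, 3 counts corresponded to 6.11 CPM in oligodendrocytes, 11.96 CPM in precursors, 7.01 CPM in astrocytes, 19.998 CPM in tanycytes and 34.4 CPM in microglia.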

How the data were processed

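Nuclear RNA of frozen whole hypothalamus was counted with the Chromium 3′ chemistry, per the labels' protocols. The authors deposited raw counts of UMIs for each gene in each barcode, per the file headers. Cell Ranger 5.0.1 and GRCh38 are named in the submitters' processing notes, although the gene identifiers belong to mouse. Neither the mouse build nor the use of strand is stated in the sources used here. The members and the lists of partners were chosen with earlier results of these data known.

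A nucleus was kept with 300 genes or more and no more than 5% of its UMIs mitochondrial. Scrublet, through scanpy 1.11.5, marked 6 doublets (0.150%) in library A and 42 (1.95%) in B, which were left out, so that 6110 of 6158 nuclei remained; the share marked in A is low. Clusters were made on 3000 variable genes without the members, 40 principal components and 20 neighbours at resolution 1.5 (igraph 0.11.9). Glial clusters were named where at least 3 markers of a class stood 4-fold above the other nuclei. Neuron clusters did not meet that rule. They were named where at least 6 of 12 neuronal markers stood over 2-fold above the mean of the named glial clusters. Fewer than 3 markers of other classes could be among their 20 leading genes. With the members kept, 99.4% of nuclei had the same class. The single clusters matched less closely, with an adjusted Rand index (a measure of agreement between groupings) of 0.652. Tests over neuron clusters were not repeated on that clustering.

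Counts were summed per library and class or neuron cluster with at least 20 nuclei. The edgeR 4.0.16 quasi-likelihood test with TMM scaling and the library as a term was run on genes with at least 10 summed UMIs in R 4.3.3, with Benjamini-Hochberg adjustment over all genes at 0.05; DESeq2 1.42.0 was an alternative. The tests were checked on simulated data. Values are CPM of each library and class. CPM, fold bounds and counting intervals are without TMM scaling, while log2 differences and p-values of edgeR are with it. Library A held 8779880 UMIs and B 4924563, with median 1813 and 2049 per nucleus. Intervals and floors of 3 counts cover counting error only. Named members were those that passed with the smallest p in each direction, with fixed ligand and receptor pairs. GABAergic and glutamatergic nuclei were called from transmitter genes. Library pairing comes from the library of origin, so the library was a term in every test. No comparison of transplanted with control was made, because the deposits share their nuclei.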

Additional observations from a re-analysis of the deposited data

How the results depend on the processing

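Of 97 alternatives to the counts of called members, 85 stayed within 1.5 times the count given in the report. Those that did not were DESeq2, which called 20 members (7 higher and 13 lower) in oligodendrocytes against neurons in place of 32, 7 in tanycytes against neurons in place of 16, 10 in microglia in place of 18, 1 for transmitter type in place of 6 and 52 pairs of member and neuron cluster in place of 121. Scaling without TMM left 11 members in microglia, 1 higher and 10 lower. Without the replicate block, the term that pairs classes of 1 library, 0 members were called for transmitter type (2 at an unadjusted p under 0.05) and 45 pairs over neuron clusters. Leaving out 1 library from the class tested gave 7 to 11 members in tanycytes, 11 in microglia with either library left out, and 5 to 8 in tanycytes against astrocytes in place of 9. Of the members' single differences, 2183 kept their direction and side of the threshold, 409 lost the call and 1 reversed: Plxna4 in microglia, at 0.10 without TMM and −0.82 with it. Both tallies include the transplanted-labelled deposits, which hold the same nuclei, so agreement there adds no separate support. The split of higher against lower calls moved by over 10 percentage points without TMM in tanycytes against neurons (2 higher, 10 lower) and against astrocytes (7 and 2), and with DESeq2 in precursors (8 and 9), microglia (2 and 8), tanycytes against astrocytes (6 and 2), transmitter type (0 and 1) and single neuron clusters (24 and 28). Without TMM the median of all genes moved by 0.88 in microglia, 0.61 in tanycytes, 0.30 in precursors and 0.21 in astrocytes; the causes were not tested. Transmitter and single-cluster results within 1 library are values with no test.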

Other observations

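Of the neuron clusters too small for a test, 4 had levels that were singled out after they were seen. In cluster 24, led by Npy, the neuropeptide gene of arcuate feeding neurons, and Ghr (51 nuclei), Efna5 had 1605 and 1455 CPM in libraries A and B, Epha3 had 585 and 333 CPM, and Epha6 had 16.7 and 0 CPM. Cluster 25, led by Avp and Oxt, the vasopressin and oxytocin genes (48 nuclei), had Efna5 at 30.4 and 74.4 CPM, and no UMI of Epha3. Cluster 26, led by Hdc, the enzyme that makes histamine (21 nuclei), had Sema6d at 1673 and 2266 CPM and Epha6 at 1498 and 1681 CPM. In cluster 22 (68 nuclei), Epha4 had 309 and 184 CPM. No test was made of these levels.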
